A study of Mus musculus with 12 samples.

Results

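The genes described here are Rsph1, a gene of the motile cilium, Dynlt1b and other light chain genes of the motor dynein, and Foxj1, a regulator of motile cilia. They were listed by name as 7 genes: Rsph1, Dynlt1b, Dynlt3, Dynll1, Dynll2, Dynlrb1 and Foxj1. Every probe whose annotated symbol was one of these names or a synonym was taken, which gave 6 probes of 33012, 1 for each of 6 genes, and no probe under a name of Dynlt3. Rsph1 and Dynlt1b were chosen because they had differed between the strains in these samples, so their strain values are a description with no test. The other 4 measured genes were listed for their family or role, with earlier results of these data known.

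The samples were male mice of B6.CAST-17, a congenic strain that is B6 apart from a chromosome 17 segment of CAST origin and was homozygous here, and male wild type B6 mice. Hypothalamus of congenic mice, hypothalamus of wild type mice, skeletal muscle of congenic mice and skeletal muscle of wild type mice were each measured on 3 arrays, 12 in all. Neither an age nor a treatment is given, and the extent of the segment is not stated in the labels. The congenic hypothalamus titles read B6.CAST-17 short congenics, and the muscle titles only Congenics. The titles thus do not show whether both tissues came from the same congenic line. The series text speaks of biological replicates, 3 mice per strain, and no label ties the tissues to the same mice. Values are log2 intensities of single probes, so levels of different genes were not set against each other. Without detection calls the signal over background is not known, and the number of arrays limits the precision.

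One array stood apart from the rest. Wild type hypothalamus array 1 had rank correlations of 0.42 to 0.461 with the other 5 hypothalamus arrays, which correlated at 0.775 to 0.853 among themselves, and the 6 muscle arrays correlated at 0.796 to 0.862. Hypothalamus values are therefore given on 6 arrays and on 5 arrays without it. The median of 9 skeletal muscle markers lay at 8.67 to 9.84 on the hypothalamus arrays and at 19.79 to 20.12 on the muscle arrays. The median of 8 neuronal markers lay at 11.36 to 14.70 on the hypothalamus arrays, lowest on wild type array 1, and at 8.27 to 9.85 on the muscle arrays. The markers went both ways on wild type hypothalamus array 1. Eno2 (9.08) and Tubb3 (10.36) lay below the other 5 hypothalamus arrays, and Map2 (12.23) and Syt1 (13.57) above them. Nefl, Nefm, Stmn2 and Snap25 lay among them. Markers of the anterior pituitary had a median of 15.25 on congenic hypothalamus array 1 and 9.49 to 10.71 on the other 5 hypothalamus arrays. In whole tissue, fewer cells of a type and less RNA per cell cannot be told apart.

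Dynein walks along microtubules. In the cytoplasm it carries cargo towards the cell centre with the help of dynactin, and in motile cilia its axonemal forms slide the microtubule doublets that make the cilium beat. Light chains of the Tctex, LC8 and roadblock families sit on the intermediate chains of the motor, and LC8 proteins also bind many partners outside dynein. Radial spokes reach from the doublets to the central pair of the axoneme and regulate the beat. In the brain, multiciliated ependymal cells line the ventricles, one of which the hypothalamus borders, whereas mature muscle fibres carry no motile cilia.

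Rsph1 encodes a protein of the radial spoke head, and in humans its loss is a cause of primary ciliary dyskinesia. It lies on chromosome 17. In hypothalamus its probe read 14.48, 14.23 and 14.27 on the congenic arrays, against 9.06, 12.11 and 11.85 on the wild type arrays, where 9.06 is array 1. In muscle it read 11.55, 11.84 and 11.83 on the congenic arrays, against 9.77, 10.24 and 9.91 on the wild type arrays. The strains did not overlap in either tissue, and the congenic arrays were the higher ones in both.

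The congenic minus wild type difference of Rsph1 was 3.32 (SE 0.88, 9.99-fold) on 6 hypothalamus arrays and 2.35 (SE 0.27, 5.08-fold) without wild type array 1. In muscle it was 1.77 (SE 0.29, 3.41-fold). On the congenic hypothalamus arrays the probe stood between percentiles 93.1 and 94.0 of all probes, and on wild type arrays 2 and 3 between 79.2 and 81.1. On the muscle arrays it stood at percentiles 76.2 to 78.3 in congenic and 59.3 to 64.7 in wild type mice. The order of the groups was congenic hypothalamus (mean 14.33 ± 0.13, n = 3), wild type hypothalamus (11.98 ± 0.18 on 2 arrays), congenic muscle (11.74 ± 0.16, n = 3) and wild type muscle (9.97 ± 0.24, n = 3), with SDs. Wild type hypothalamus and congenic muscle, the neighbours in the middle of that order, differed by little more than their SDs.

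Dynlt1b, also on chromosome 17, encodes a light chain of the Tctex family, first known from the t complex of mice. Its probe read 15.67, 16.01 and 15.16 on the congenic hypothalamus arrays, against 7.78, 14.29 and 14.02 on the wild type hypothalamus arrays. In muscle it read 17.11, 16.89 and 17.19 on the congenic arrays, against 16.20, 15.92 and 16.21 on the wild type arrays. The congenic arrays again lay above the wild type arrays in each tissue with no overlap.

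The congenic minus wild type difference of Dynlt1b was 3.58 (SE 1.58, 12-fold) on 6 hypothalamus arrays, of which wild type array 1 made up more than 2 log2 units, and 1.46 (SE 0.35, 2.74-fold) on 5. In muscle it was 0.95 (SE 0.16, 1.94-fold). Its 4 groups ran in the order congenic muscle (17.06 ± 0.15), wild type muscle (16.11 ± 0.16), congenic hypothalamus (15.61 ± 0.43) and wild type hypothalamus (14.16 ± 0.19 on 2 arrays), with SDs and n = 3 elsewhere. Wild type muscle and congenic hypothalamus overlapped. Dynlt1a, Dynlt1c and Dynlt1f, near-identical copies of Dynlt1b on chromosome 17, had no probe of their own name, and whether the Dynlt1b probe also detects their RNA was not tested. Probe sequences were not used here, so for Rsph1, Dynlt1b and the other chromosome 17 genes it was not tested whether CAST bases under a probe alter its reading in congenic mice. 

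**Figure D1:**
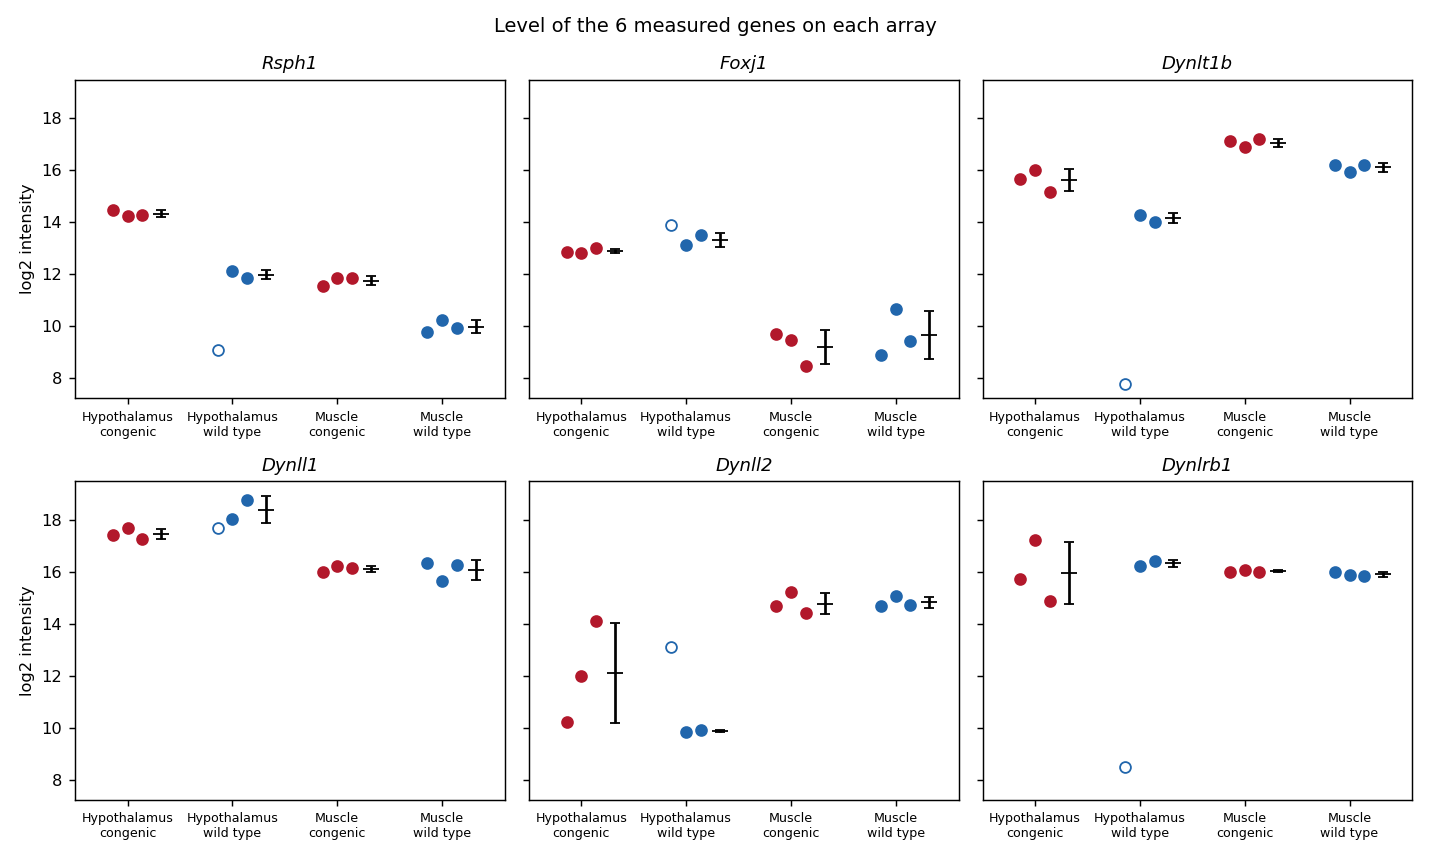
Level of each of the 6 measured genes as log2 intensity (vertical axis) on every array, with hypothalamus left of muscle and congenic (red) left of wild type (blue). The open circle is wild type hypothalamus array 1, and the bar beside each group is its mean with its SD, without that array. Rsph1 and Dynlt1b are the genes whose congenic points all lie above the wild type points in both tissues, while Foxj1, Rsph1 and Dynll1 have higher means in hypothalamus and Dynll2 and Dynlt1b in muscle.

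The 3 light chain genes and Foxj1, which were not chosen on the strain contrast, showed no strain difference past the threshold. Of 4 genes tested with limma (Dynll1, Dynll2, Dynlrb1 and Foxj1), 0 had an adjusted p under 0.05 in muscle, where 0.0182% of all probes did, and 0 in hypothalamus on 6 or on 5 arrays, where 0% of all probes did. At an unadjusted p under 0.05 the counts were 0 in muscle (background 5.01%), 0 on 6 hypothalamus arrays (background 1.99%) and 1, Dynll2, on 5 (background 5.33%). Of all 6 genes, the strains did not overlap in muscle for 2, both higher, where 6.65% of all probes were apart and higher in congenic mice. On 5 hypothalamus arrays 3 genes were apart and higher and 2 apart and lower, where 9.32% and 13.3% of all probes were. On 6 arrays the counts were 2 and 2, where 3.47% and 5.69% of all probes were. These counts include Rsph1 and Dynlt1b, for which nothing is read from them.

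Dynll1 encodes an LC8 light chain that also binds neuronal nitric oxide synthase and other proteins. It read 17.43, 17.67 and 17.26 on the congenic hypothalamus arrays, against 17.68, 18.02 and 18.77 on the wild type hypothalamus arrays. The muscle values were 15.99, 16.21 and 16.13 on the congenic arrays, against 16.34, 15.64 and 16.27 on the wild type arrays. The strains overlapped in muscle, and in hypothalamus all congenic arrays were below all wild type arrays, by as little as 0.01 between the nearest 2. The strain difference was -0.94 (95% interval -2.11 to 0.23, adjusted p = 0.9) on 5 hypothalamus arrays, -0.70 (adjusted p = 0.936) on 6, and 0.03 (-0.42 to 0.48, adjusted p = 0.982) in muscle.

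Dynll2 encodes the other LC8 light chain, which also serves as a light chain of myosin V. It read 10.23, 11.97 and 14.09 on the congenic hypothalamus arrays, against 13.11, 9.83 and 9.91 on the wild type hypothalamus arrays. In muscle it read 14.68, 15.21 and 14.42 on the congenic arrays, against 14.69, 15.06 and 14.73 on the wild type arrays. The hypothalamus spread, with an SD of 1.93 among congenic arrays, was the widest of the 6 genes in that group, and the muscle arrays of both strains overlapped. The strain difference was 2.22 (95% interval 0.08 to 4.36, adjusted p = 0.9) on 5 hypothalamus arrays, 1.14 (-1.63 to 3.92, adjusted p = 0.936) on 6, and -0.06 (-0.56 to 0.45, adjusted p = 0.968) in muscle. The median of 5 oligodendrocyte markers was 9.74, 11.33 and 12.75 on the same 3 congenic hypothalamus arrays, and 7.90, 10.46 and 11.01 on the wild type ones. Among these markers Mbp, a myelin protein gene (9.78, 15.57 and 17.24), Cnp and Olig1 rose over the congenic arrays in the order of Dynll2. Mog (12.02, 11.85 and 12.75) and Mag (8.65, 8.33 and 11.93) did not. Wild type array 1 paired a Dynll2 value of 13.11 with the lowest marker median. The other wild type arrays paired the lowest Dynll2 values with Mog at 12.47 and 12.91. The part of these cells in the Dynll2 values was not tested.

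Dynlrb1 encodes a roadblock light chain. It read 15.71, 17.24 and 14.88 on the congenic hypothalamus arrays, against 8.49, 16.22 and 16.43 on the wild type hypothalamus arrays. Muscle gave 16.00, 16.07 and 15.99 on the congenic arrays, against 16.01, 15.86 and 15.84 on the wild type arrays. The strains overlapped in both tissues, and the muscle values were the tightest of the 6 genes. The strain difference was -0.38 (95% interval -1.86 to 1.09, adjusted p = 0.954) on 5 hypothalamus arrays and 0.12 (-0.21 to 0.44, adjusted p = 0.885) in muscle. On 6 hypothalamus arrays it was 2.23 (adjusted p = 0.936), of the opposite sign, with the value of 8.49 on wild type array 1 included.

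Foxj1 encodes the forkhead transcription factor that switches on the genes of motile cilia, and it marks ependymal cells. It read 12.86, 12.81 and 12.99 on the congenic hypothalamus arrays, against 13.89, 13.11 and 13.50 on the wild type hypothalamus arrays. The muscle arrays gave 9.70, 9.44 and 8.44 on the congenic arrays, against 8.87, 10.65 and 9.41 on the wild type arrays. In hypothalamus all congenic values were below all wild type values, the opposite side from Rsph1, and in muscle the strains overlapped. The strain difference was -0.42 (95% interval -1.04 to 0.21, adjusted p = 0.9) on 5 hypothalamus arrays, -0.61 (adjusted p = 0.936) on 6, and -0.46 (-1.72 to 0.81, adjusted p = 0.884) in muscle.

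Wild type hypothalamus array 1 did not shift the 6 genes one way. It lay below the other 5 hypothalamus arrays for Rsph1, Dynlt1b and Dynlrb1, above them for Foxj1, and among them for Dynll1 and Dynll2. For Dynlt1b the array stood at percentile 17.1 of its own probes, against 92.3 to 97.3 on the other hypothalamus arrays. Without this array the difference of Dynlt1b was 1.46 against 3.58 with it, and that of Rsph1 was 2.35 against 3.32, with the direction of both kept.

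Rsph1 was also set beside the other radial spoke genes, of which 9 of 14 listed had a probe. Of the other 8, limma called 0 for strain in either tissue. At an unadjusted p under 0.05 there were 2 on 5 hypothalamus arrays (Rsph3a and Dnajb13, both lower), 0 on 6, and 2 in muscle (Rsph9, higher, and Rsph3a, lower). Of all probes, 5.33%, 1.99% and 5.01% passed that p on 5 and 6 hypothalamus arrays and in muscle. The adjusted threshold was passed by 0%, 0% and 0.0182%. Rsph9, a second spoke head gene and also on chromosome 17, read 13.23, 13.47 and 12 on the congenic hypothalamus arrays, against 7.73, 12.66 and 12.87 on the wild type ones. In muscle Rsph9 read 9.26, 9.58 and 9.95 on the congenic arrays, against 8.23, 7.80 and 7.94 on the wild type arrays. Its muscle groups were apart, with a difference of 1.60 (SE 0.42, adjusted p = 0.835), and its hypothalamus groups overlapped, at 0.14 (SE 0.44, adjusted p = 0.975) on 5 arrays and 1.81 (SE 1.33, adjusted p = 0.936) on 6.

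Rsph3a, another spoke gene on chromosome 17, lay on the other side. It read 9.0, 9.29 and 9.98 on the congenic hypothalamus arrays, against 8.18, 10.87 and 11.19 on the wild type ones, and 9.65, 7.94 and 10.20 on the congenic muscle arrays, against 11.04, 10.69 and 11.21 on the wild type ones. The difference was -1.61 (SE 0.44, adjusted p = 0.9) on 5 hypothalamus arrays, -0.66 (adjusted p = 0.936) on 6, and -1.72 (SE 0.55, adjusted p = 0.835) in muscle. The other 6 measured spoke genes, Rsph6a, Dnajb13, Nme5, Ropn1, Ropn1l and Iqub, are drawn in the plot of strain differences of cilia genes.

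Markers of multiciliated ependymal cells showed no strain difference past the threshold. Of 25 listed 15 had a probe, and 0 of the 13 that are not among the 6 genes had an adjusted p under 0.05 for strain in limma in hypothalamus or in muscle. At an unadjusted p under 0.05 there were 0 in hypothalamus, on 5 or 6 arrays, and 1 in muscle, Spag6l. Of all probes, 0% passed the adjusted threshold in hypothalamus and 0.0182% in muscle, and 5.33%, 1.99% and 5.01% the unadjusted one on 5 and 6 hypothalamus arrays and in muscle, so these counts do not set the markers apart. Their median difference was -0.20 on 5 hypothalamus arrays, 0.21 on 6 and -0.02 in muscle, beside medians of -0.01, -0.07 and 0.01 over all probes. The median level of the 14 markers other than Rsph1 was 9.51 to 10.03 on the congenic hypothalamus arrays and 9.99 to 10.04 on the wild type ones, and 9.27 to 9.48 on the congenic muscle arrays and 9.20 to 10.18 on the wild type ones. No defining marker of the list was at 0, since the values have no zero. Between the tissues these markers went both ways, with Mlf1 and the Hydin probe used here higher in muscle. The median of the markers therefore does not measure the share of ependymal cells, whose part in the Rsph1 values was not tested.

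**Figure D2:**
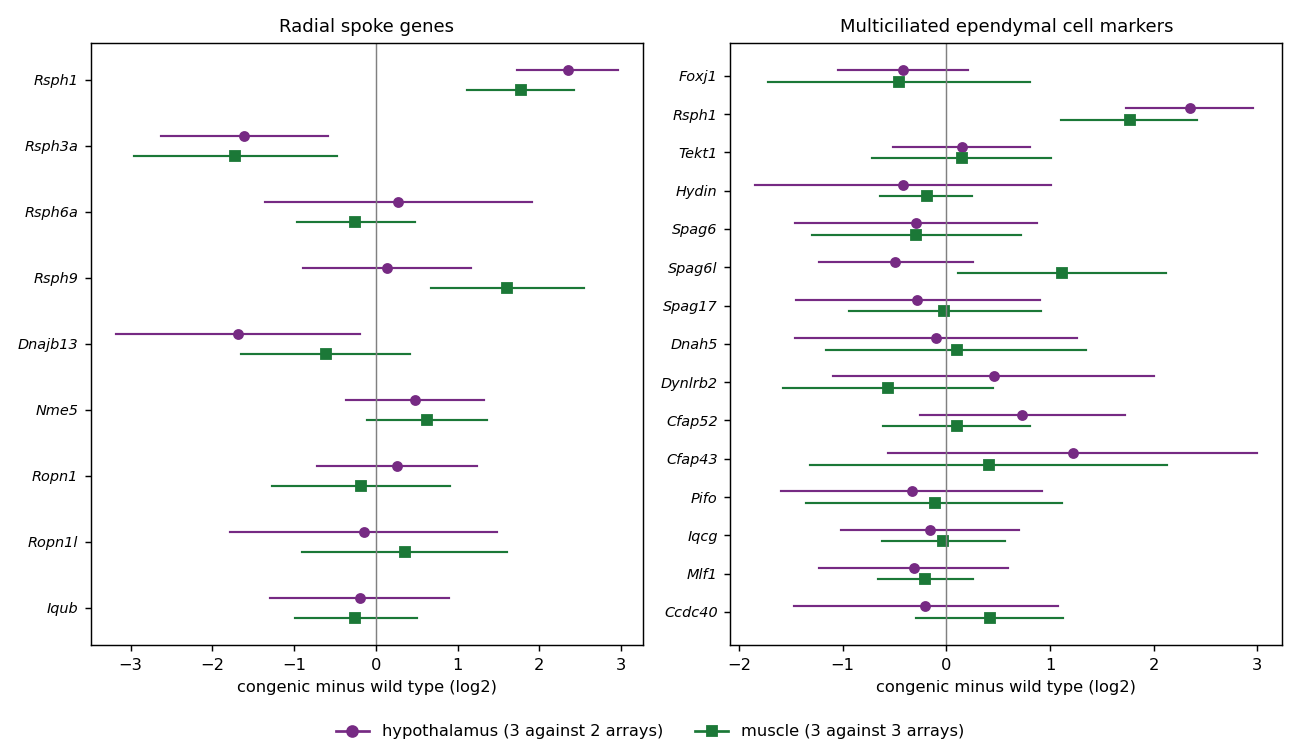
Congenic minus wild type difference (horizontal axis, log2) of the measured radial spoke genes, left, and ependymal markers, right, in hypothalamus on 5 arrays (circles) and in muscle (squares), with 95% confidence intervals. Rsph1 stands at 2.35 in hypothalamus and 1.77 in muscle, Rsph3a at -1.61 and -1.72, and Foxj1 at -0.42 and -0.46. Rsph1 was chosen because it had differed between the strains in these samples, so its intervals are not a test.

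The nearest measured genes on chromosome 17 were set beside Rsph1 and Dynlt1b; the labels do not say which of them lie in the CAST segment. Of the 5 nearest measured genes on each side of Rsph1, 0 of 10 had an adjusted p under 0.05 for strain in limma in either tissue, and at an unadjusted p under 0.05 there were 0 in hypothalamus, on 5 or 6 arrays, and 1 in muscle, Pde9a. Of all probes, 0% passed the adjusted threshold in hypothalamus and 0.0182% in muscle. The unadjusted one was passed by 5.33% and 1.99% on 5 and 6 hypothalamus arrays and by 5.01% in muscle. The counts of neighbours therefore do not set them apart from other probes. The differences of the 10 neighbours ranged from -0.77 to 0.40 on 5 hypothalamus arrays and from -0.76 to 1.33 in muscle. The direct neighbours were Ubash3a, at -0.32 in hypothalamus on 5 arrays and -0.76 in muscle, and Slc37a1, at -0.11 and -0.08. Pde9a, a cyclic GMP phosphodiesterase gene, was apart and higher in muscle, at 1.33 (SE 0.46). In hypothalamus it was apart and lower on 5 arrays, at -0.72 (SE 0.33), and overlapped on 6, at 0.14 (SE 0.83).

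Around Dynlt1b limma called 0 of 10 neighbours in either tissue. At an unadjusted p under 0.05 there were 2 on 5 hypothalamus arrays, 0 on 6 and 2 in muscle, each time Rsph3a and Rnaset2b where 2 were counted. Rsph3a was already counted among the spoke genes. Shares of all probes at that p were 5.33%, 1.99% and 5.01%, and 0%, 0% and 0.0182% were called. The differences of the 10 neighbours ranged from -1.61 to 0.71 on 5 hypothalamus arrays and from -1.72 to 0.78 in muscle. Both lowest values belong to Rsph3a, which is the fifth measured gene along from Dynlt1b. The direct neighbours Tulp4 and Sytl3 stood at 0.53 and 0.71 in hypothalamus and at 0.13 and -0.40 in muscle. Rnaset2b, a ribonuclease gene, was apart and lower on 5 hypothalamus arrays, at -1.35 (SE 0.33, adjusted p = 0.9), and in muscle, at -0.77 (SE 0.16, adjusted p = 0.835). On 6 hypothalamus arrays its groups overlapped, at -0.27 (SE 0.94).

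**Figure D3:**
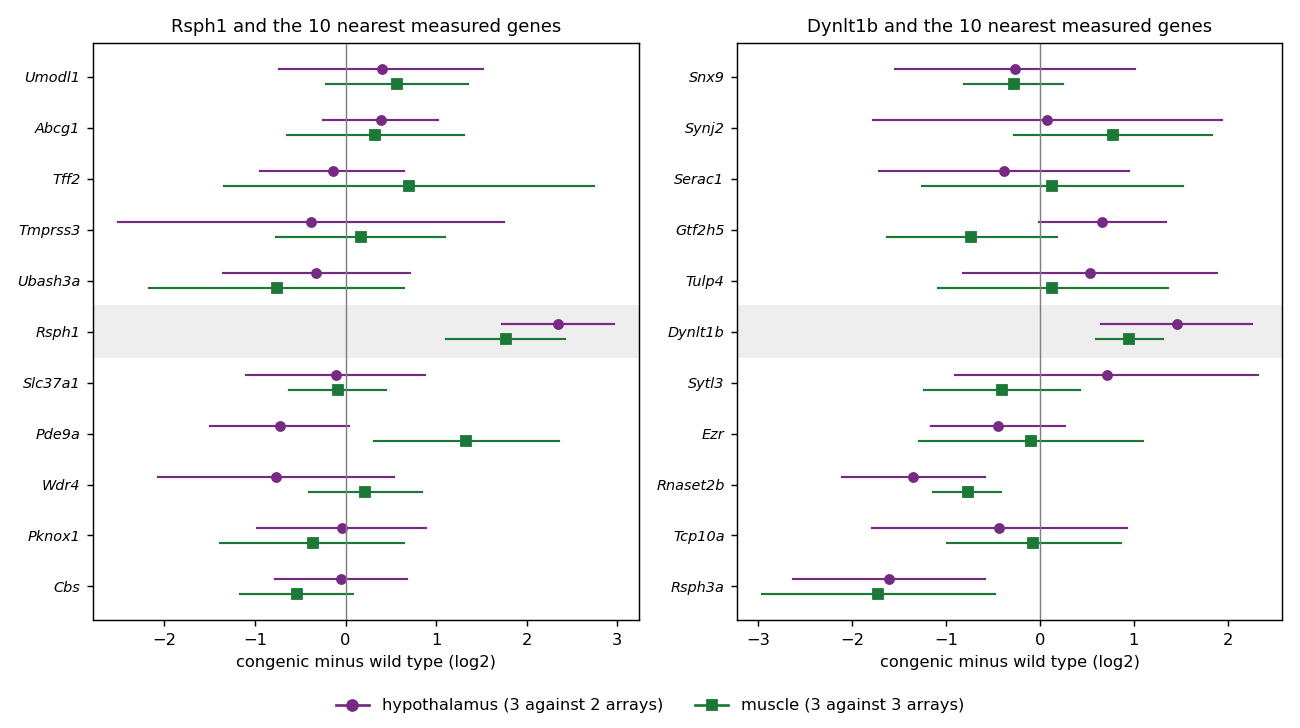
Congenic minus wild type difference (horizontal axis, log2) of Rsph1, left, and Dynlt1b, right, with the 5 nearest measured genes on each side in chromosome order, in hypothalamus on 5 arrays (circles) and in muscle (squares), with 95% confidence intervals. The shaded rows hold the named gene, and the direct neighbours of Rsph1 lie at -0.32 and -0.11 in hypothalamus. Rsph1 and Dynlt1b were chosen because they had differed between the strains in these samples. Their intervals, and their place beside the neighbours, are therefore not a test.

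The tissue contrast was not the measure that chose the genes, though they were listed with earlier results of these data known. Most of them differed between the tissues. The contrast was hypothalamus minus muscle as the mean of both strains on 11 arrays, without wild type hypothalamus array 1. With limma, 3 of the 6 genes were higher in hypothalamus, 2 were lower and 1 was not called, where 15.7% of all probes were called higher and 24.8% lower, 40.5% in all. The median difference of all probes was -0.23, and the 2 tissues' values had different distributions as deposited, so a shift of all probes cannot be told apart from normalization. Relative to that median the 5 called differences keep their direction.

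Foxj1 was 3.68 higher in hypothalamus (SE 0.33, 12.8-fold, adjusted p = 4.24e-07), and no hypothalamus array overlapped a muscle array. On the muscle arrays its probe stood at percentiles 34.4 to 68.7 of all probes, and on the hypothalamus arrays of congenic mice at 86.0 to 87.1. Rsph1 was 2.30 higher in hypothalamus (SE 0.19, 4.91-fold, adjusted p = 1.5e-07). The rise held within congenic mice, at 2.58 (adjusted p = 1.55e-06), and within wild type mice, at 2.01 (adjusted p = 6.14e-05). Dynll1 was 1.83 higher in hypothalamus (SE 0.22, 3.55-fold, adjusted p = 8.08e-06).

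Dynll2 was lower in hypothalamus, with a difference of -3.81 (SE 0.49, 14.1-fold, adjusted p = 1.66e-05), the opposite direction from Dynll1, its partner in the LC8 family. Within congenic mice the difference was -2.68 (adjusted p = 0.00543) and within wild type mice -4.95 (adjusted p = 0.000109). Dynlt1b differed by -1.70 (SE 0.20, 3.26-fold, adjusted p = 5.65e-06), at -1.45 within congenic and -1.95 within wild type mice. Its congenic hypothalamus arrays overlapped its wild type muscle arrays. Dynlrb1 differed by 0.17 (95% interval -0.53 to 0.87, adjusted p = 0.72). When the 12 arrays were quantile normalized together it was called, at 0.93 (adjusted p = 0.0391).

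Whether a strain difference was of another size in the other tissue was asked with the interaction, the hypothalamus difference minus the muscle difference on 11 arrays. Of the 4 genes open to this test, limma called 0, as it did of all probes (0%). At an unadjusted p under 0.05 there were 2, where 6.74% of all probes passed. These were Dynll2, at 2.28 (95% interval 0.17 to 4.39, adjusted p = 0.727), and Dynll1, at -0.97 (-1.91 to -0.03, adjusted p = 0.737). Dynlrb1 stood at -0.50 (adjusted p = 0.887) and Foxj1 at 0.04 (adjusted p = 0.993). As a description with no test, Rsph1 stood at 0.58 (SE 0.37) and Dynlt1b at 0.50 (SE 0.39). With wild type hypothalamus array 1 kept, both values were larger, as given in the closing section.

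Promoter sequences are shown for 4 genes that part along the tissue contrast: Dynlrb1, which was not called, its family member Dynlrb2 and the spoke gene Rsph9, both much higher in hypothalamus, and Dynll1, from RefSeq on GRCm38.p6. Each is 250 bases before to 50 bases after a start site, 5′ to 3′ on the gene's strand. Capitals mark GTTGCC or, for the other strand, GGCAAC, one arm of the X-box that RFX factors of ciliary genes recognise; no other motif was searched. Of 32851 such windows of 300 bases, 12.5% held a match on either strand.
Dynlrb1 (chr2:155236283-155236582, + strand): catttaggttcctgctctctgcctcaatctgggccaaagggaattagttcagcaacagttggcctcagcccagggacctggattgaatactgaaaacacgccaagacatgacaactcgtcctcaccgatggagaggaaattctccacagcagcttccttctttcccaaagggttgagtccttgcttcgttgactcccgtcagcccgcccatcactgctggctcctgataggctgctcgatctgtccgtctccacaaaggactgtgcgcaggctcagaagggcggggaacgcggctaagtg
Dynlrb2 (chr8:116504765-116505064, + strand): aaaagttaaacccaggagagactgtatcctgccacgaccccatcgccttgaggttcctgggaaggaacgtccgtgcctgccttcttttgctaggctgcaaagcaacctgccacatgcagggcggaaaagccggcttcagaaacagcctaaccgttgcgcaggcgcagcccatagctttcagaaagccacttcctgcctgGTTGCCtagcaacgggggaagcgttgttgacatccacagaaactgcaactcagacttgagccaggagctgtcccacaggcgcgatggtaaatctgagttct
Rsph9 (chr17:46144151-46144450, - strand): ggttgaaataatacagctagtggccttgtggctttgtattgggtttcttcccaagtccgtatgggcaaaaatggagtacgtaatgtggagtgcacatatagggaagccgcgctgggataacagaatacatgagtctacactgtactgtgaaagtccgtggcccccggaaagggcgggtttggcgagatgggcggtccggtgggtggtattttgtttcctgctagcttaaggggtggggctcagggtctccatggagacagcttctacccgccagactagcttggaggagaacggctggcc
Dynll1 (chr5:115300941-115301240, - strand): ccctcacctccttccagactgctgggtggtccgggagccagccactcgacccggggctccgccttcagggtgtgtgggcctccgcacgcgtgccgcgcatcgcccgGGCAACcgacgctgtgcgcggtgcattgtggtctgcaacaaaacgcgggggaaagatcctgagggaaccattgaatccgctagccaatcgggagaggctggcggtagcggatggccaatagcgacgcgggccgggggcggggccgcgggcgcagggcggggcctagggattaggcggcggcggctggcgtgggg
The windows of Dynlrb2 and Dynll1 held 1 match each, beginning at -51 and at -144 from the start site, and those of Dynlrb1, at either of its 2 listed start sites, and Rsph9 held none. The window of Iqub, a spoke gene also higher in hypothalamus and not printed, held none either. Windows of Rsph1, Dynlt1b, Dynll2 and Foxj1 were not available here. A match is a string of letters and not a measured site.

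Dynlrb2, the roadblock chain of the second window, read 13.50, 14.08 and 11.49 on the congenic hypothalamus arrays, against 14.53, 12.57 and 12.56 on the wild type ones. In muscle it read 8.71, 8.35 and 8.73 on the congenic arrays, against 9.78, 8.67 and 8.99 on the wild type arrays. The strains overlapped in hypothalamus, and every hypothalamus array lay above every muscle array. Its tissue difference was 3.92 (SE 0.40, 15.2-fold, adjusted p = 1.82e-06), against 0.17 for Dynlrb1.

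The other light chain genes had 7 of 13 listed members on the array, and 3 were higher in hypothalamus and 0 lower, with a median tissue difference of 0.83. The counts of this and the following lists stand beside 15.7% of all probes called higher and 24.8% called lower. Beside Dynlrb2 these were Tctex1d4, a Tctex family gene, at 2.23 (adjusted p = 0.000134), and Dnal4, at 0.80 (adjusted p = 0.00181). Tctex1d1 and Tctex1d2, the other measured Tctex genes, did not pass. Of the radial spoke genes 4 of 9 were higher, Rsph9 by 4.04 (SE 0.29), Iqub by 2.52, Rsph1 and Nme5 by 0.95, and 1, Ropn1, was lower but was not called when the 12 arrays were normalized together. Of 12 measured axonemal dynein and assembly genes 3 were higher, Wdr78 by 3.52, Lrrc6 by 2.45 and Dnah11 by 1.79, and 1, the assembly factor gene Dnaaf5, differed by -1.98.

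Foxj1 was the 1 gene called among 6 measured ciliogenesis transcription factor genes. The ependymal markers went both ways between the tissues, with 6 of 15 higher and 4 lower. The lower ones were Mlf1 at -7.91, Hydin at -3.77, Iqcg at -3.58 and Spag17 at -2.09. Hydin, a gene of the ciliary central pair, read 12.64 to 12.92 on the congenic muscle arrays and 12.86 to 13.03 on the wild type muscle arrays. Its hypothalamus arrays read 8.20 to 9.40 in congenic and 8.64 to 10.73 in wild type mice. Hydin had 5 probes and Spag17 had 2, and a single probe of each is given here. A probe picked by its level over all arrays can favour a probe that is bright in muscle. The readings of their other probes were not compared, so whether the direction of Hydin and Spag17 depends on the probe was not tested. Mlf1 and Iqcg had 1 probe each and were also lower. With these 2 genes lower on their only probes, the list was not a marker of hypothalamus as a whole.

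The cytoplasmic motor was higher in hypothalamus in most of its measured subunits, 6 of 7 higher and 0 lower, with a median difference of 2.17. The neuronal intermediate chain gene Dync1i1 was higher by 4.92 (SE 0.35, 30.3-fold, adjusted p = 3.14e-08) and Dync1i2 by 2.17 (adjusted p = 1.76e-06). Wdr34 and Dync2li1, of the dynein that works inside cilia, were higher by 2.27 and 1.57. With wild type hypothalamus array 1 kept, 3 of the 7 were called. Dynactin, the cofactor of the motor, had 4 of 9 genes higher, with Dctn5 at 2.42 and Dctn1 at 2.07, and 2 lower, with Capza2 at -1.58, and 1 in each direction on 12 arrays.

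Of the regulators and adaptors 2 of 10 were higher in hypothalamus and 4 lower, beside 15.7% and 24.8% of all probes. Pafah1b1, the gene of the dynein regulator Lis1, differed by -1.19 (adjusted p = 7.62e-05), Hook3 by -1.78 and Nde1 by -1.03, and Ninl was higher by 0.99. Of 9 measured genes for partners of the light chains 4 were higher and 1 lower. They were Myo5a, a myosin V heavy chain, by 3.22 (adjusted p = 2.26e-06), Trp53bp1, whose protein binds LC8, by 2.69, Myo5b by 2.39 and Gphn, the gephyrin gene, by 1.55. Over the 67 measured genes of these dynein and cilia lists other than the 6 genes, limma called 0 for strain in either tissue, and at an unadjusted p under 0.05 there were 3 on 5 hypothalamus arrays, 0 on 6 and 5 in muscle. With 5.33%, 1.99% and 5.01% of all probes at that p, and 0%, 0% and 0.0182% called, these counts are near the background.

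**Figure D4:**
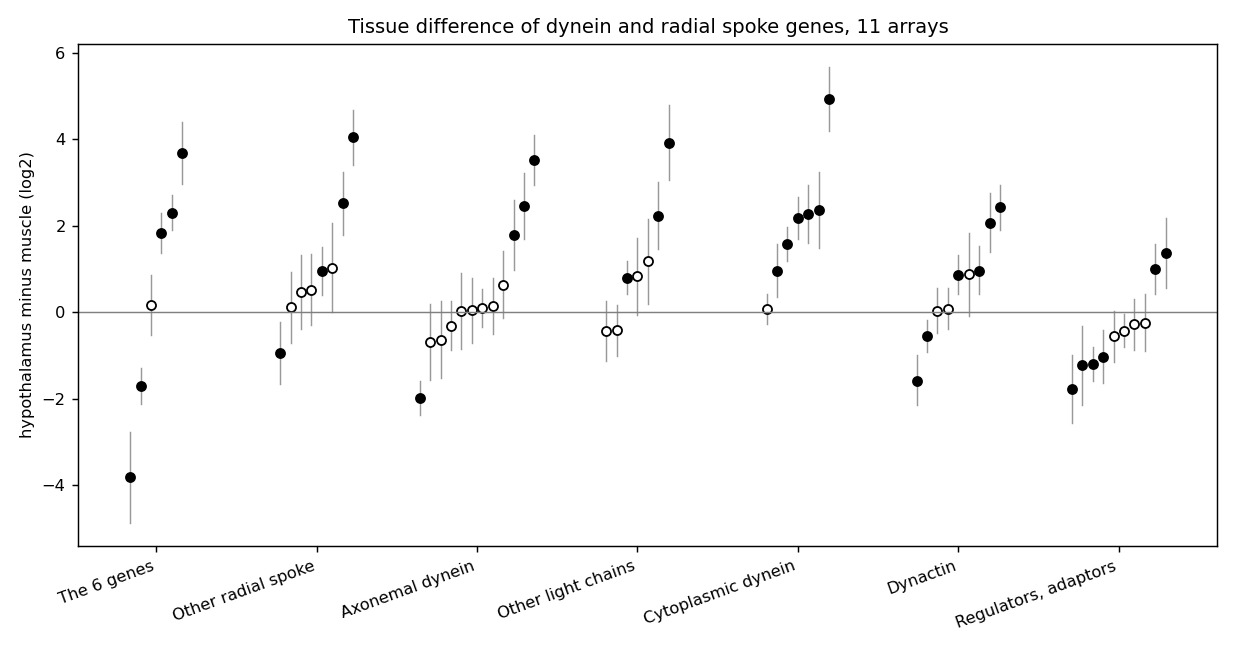
Hypothalamus minus muscle difference (vertical axis, log2) on 11 arrays of the 6 measured genes and of the other measured genes of 6 lists, each sorted by size, with 95% confidence intervals. Filled points passed an adjusted p of 0.05 and open points did not; the 6 genes run from -3.81 for Dynll2 to 3.68 for Foxj1, and 6 of the 7 cytoplasmic dynein subunits are filled and above 0.

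The genes most like Rsph1 over the 11 arrays were found by the root mean square difference of values centred on each gene's mean, among 13839 other genes. They were BC051142, which is on chromosome 17, at 0.77, Armh4 at 0.80, Gpc2 at 0.81, Tdrd12 at 0.82 and Usp29 at 0.82, where a flat profile would be at 1.62. For BC051142 the strain differences were 1.08 in hypothalamus and 0.39 in muscle, and the tissue difference was 2.36. For Dynlt1b they were AW209491 at 0.38, Phlda1 at 0.41, Tstd2 and Dock2 at 0.42 and Rps14 at 0.43, where a flat profile would be at 1.0. AW209491 had strain differences of 1.34 in hypothalamus and 0.13 in muscle and a tissue difference of -1.77. BC051142 and AW209491 were picked for likeness on these same arrays, so their strain and tissue differences are a description and no separate result. Arrays shared by all these profiles also share their normalization.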

How the data were processed

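Expression in hypothalamus and skeletal muscle of congenic and wild type mice came from 12 chemiluminescent arrays of 1 colour. According to the protocols in the labels, RNA isolated with TRI-Reagent and cleaned on columns was copied into digoxigenin-labelled cRNA. The deposited values run over 5.35 to 21.1 and were read as log2 intensity, a base inferred from that range since the labels do not give it. The 6 arrays of a tissue shared 1 distribution (median 9.12 in muscle, 8.98 in hypothalamus), as normalization within each tissue gives. How background was corrected, and with which software, is not given in the sources used. Titles gave the groups, because the samples' descriptions name B6-CAST-17 throughout, also for those titled wild type. Probes were named from the platform annotation (14411 with 1 symbol, 247 with several, 18354 with none), and GRCm38.p6 gene tables served for current names, chromosomes and gene order.

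From these values, strain, tissue and interaction contrasts were fitted over all 33012 probes (limma 3.58.1, R 4.3.3; lmFit, then eBayes with its trend option), at a Benjamini-Hochberg adjusted threshold of 0.05, no floor and no filter; the fit was tested on simulated data. The genes, their lists and the rule for named genes were chosen with earlier results of these data known. Named were all members, all measured genes of their families, the 5 nearest measured genes on each side of Rsph1 and Dynlt1b, the 5 closest profiles, and up to 4 called genes per list. Genes named beyond this rule for their values were chosen after those values were seen. A listed gene with several probes is given by a single one of them, and whether its tissue difference depends on that choice was not tested. Alternatives were joint normalization, a floor or filter at percentile 20, other variance models, array weights, a replicate block and arrays left out.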

Additional observations from a re-analysis of the deposited data

Results flagged for a closer look

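3 genes of the lists had congenic arrays on one side of all wild type arrays in hypothalamus and on the other side in muscle. Of all probes, 6.65% were apart and higher in congenic mice in muscle. The share apart and lower in muscle, the side of Lhb, is not given here. On 6 hypothalamus arrays 3.47% were apart and higher and 5.69% apart and lower. The share of all probes apart on opposite sides was not counted, so the count of 3 cannot be judged against it. Dnal4, a dynein light chain gene, differed by -0.79 in hypothalamus on 6 arrays and by 0.34 in muscle. Spag6l, a gene of the ciliary central pair, differed by -0.75 and 1.12. Lhb, which encodes a pituitary hormone subunit, differed by 0.83 and -0.47. The differences between the tissues were not tested on these 12 arrays. On 11 arrays limma's interaction gave adjusted p-values of 0.748, 0.72 and 0.686 for Dnal4, Spag6l and Lhb, so none passed. At an unadjusted p under 0.05 in that fit Spag6l and Lhb passed, where 6.74% of all probes did. The genes were picked for lying on opposite sides, so these p-values are no separate result.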

How the results depend on the processing

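Of the 5 comparisons, the count of genes called kept within 1.5 times under every alternative run for it except 1: on 5 hypothalamus arrays the replicate block called 1 gene for strain against 0 without it, Dynll2 at 3.16 (adjusted p = 0.0186). Without wild type array 1, congenic array 1 was alone in its block, so this value rests on arrays 2 and 3 of each strain. The numbers were not shown to pair the arrays: deviations of same-numbered arrays correlated at 0.015 to 0.069 between strains in muscle and at -0.129 to 0.138 in hypothalamus. In the tissue contrast 5 of 6 genes were called under every setting except joint normalization, which called 6. The strain difference of Rsph1 kept its direction when single arrays were left out, at 2.35 to 3.87 on 6 hypothalamus arrays, 2.22 to 2.47 on 5 and 1.67 to 1.90 in muscle, and moved to 2.57 on 5 arrays when all arrays were normalized together. That of Dynlt1b ran 1.46 to 4.71, 1.26 to 1.68 and 0.86 to 1.04; both lowest 6-array values are those without wild type hypothalamus array 1. With all 12 arrays the interaction was 1.55 for Rsph1 and 2.63 for Dynlt1b. The sign turned for differences near 0. With single arrays left out, the muscle strain difference ran -0.19 to 0.16 for Dynll1, -0.28 to 0.12 for Dynll2 and -0.84 to 0.05 for Foxj1, and for Dynlrb1 the values ran -0.38 to 3.59 on 6 hypothalamus arrays, -1.03 to 0.15 on 5, -0.15 to 0.44 for tissue and -1.15 to 0.03 for the interaction, and -0.47 to 0.42 for the Foxj1 interaction. Array weights gave Dynlrb1 -0.11 on 6 hypothalamus arrays. All 12 arrays gave Dynlrb1 -1.13 for tissue and 2.11 for the interaction and Foxj1 -0.16 for the interaction, and congenic mice alone gave Dynlrb1 -0.08 for tissue. Joint normalization called the tissue difference of Dynlrb1 at 0.93 (adjusted p = 0.0391). The causes were not tested. Without detection calls, values low on an array cannot be told from background.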
